A study of Mus musculus with 24 samples.

Results

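The response of splenic Tconv CD4+ cells of mtDNA NZB mice to activation was measured in 11 of the 24 libraries of the series, 5 of resting and 6 of activated cells. The libraries were chosen by their labels (mtDNA NZB, resting or activated). Resting replicate 2 was left out because it held 51409 counts, against 641467 to 6449395 in the libraries kept. mtDNA NZB mice are conplastic, that is, they combine the C57BL/6J nuclear genome with the mtDNA of the NZB strain, which differs from that of C57BL/6J at 91 nucleotides. The other 12 libraries, resting and activated, come from mtDNA B6 mice, which have the same nuclear genome with C57BL/6J mtDNA. For most experiments of the study the methods give males of 2 to 3 months, and age and sex are not stated for these libraries. Tconv CD4+ cells (CD4+ CD25−) were isolated from spleen on magnetic columns, by negative selection for CD4 and depletion of CD25, and the cells were then divided. Resting cells were 1 portion, and the other was activated for 72 h with IL-2 and beads coated with antibodies to CD3ε and CD28, at 1 bead per cell. The culture of the resting cells is not stated, so activation and time in culture cannot be told apart. RNA was measured by bulk MARS-seq, in which 3′ ends of polyadenylated transcripts are counted by unique molecular identifier (UMI).

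Engagement of the T cell receptor together with CD28 takes a T cell out of quiescence. The cell grows, switches on glycolysis and mitochondrial biogenesis, replicates its DNA and divides, and IL-2, acting through STAT5, sustains this programme. Immediate-early transcription factors such as those of the AP-1 family are known to respond to many stimuli within a short time, and factors such as KLF2 keep naive cells in the quiescent, recirculating state.

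Totals ran from 2642186 to 3662366 UMI counts in the 5 resting libraries and from 641467 (replicate 1) to 6449395 (replicate 6) in the 6 activated libraries, with 15194 to 16495 and 12312 to 17053 genes detected. Levels below are CPM, UMI counts scaled to the size of the library after TMM normalization, and resting values are listed for replicates 1, 3, 4, 5 and 6 in that order. T cell identity was checked first. *Cd4* stood at 663, 629, 628, 730.2 and 418 CPM in resting cells and at 494 to 743 CPM (median 579.8) in activated cells, and *Cd3e*, the CD3ε chain of the T cell receptor complex, at 364, 366, 304, 324 and 239 CPM and at 217 to 349 CPM (median 297). Resting and activated libraries overlapped for both genes, for which no change passed the test (log2 fold changes −0.057 and −0.13, adjusted p = 0.727 and 0.447, adjusted by Benjamini-Hochberg from the quasi-likelihood test of edgeR, as is every adjusted p here). Of 18 tested identity genes 4 rose and 4 fell, or 2 and 5 without replicate 6 of either state. Over all genes tested 27.1% rose and 27.7% fell, or 24.5% and 28.7% without replicate 6. *Thy1*, which encodes a T cell surface glycoprotein, had the largest rise (log2 fold change 0.85).

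Resting replicate 6 stood apart from the other libraries. The summed level of 20 granulocyte and precursor markers was 487.8 to 1128 CPM in the other 4 resting libraries, 25171 CPM in resting replicate 6 and 11.3 to 220.8 CPM in activated cells. The sum of 16 erythroid markers was 344.4 to 488.3 CPM in the 4 resting libraries, 4913 CPM in replicate 6 and 43.8 to 112.8 CPM after activation. For 17 B cell markers the resting range was 9848 to 35281 CPM, highest in replicate 6, and the activated range 1397 to 8392 CPM, while the 18 T cell identity genes summed to 7755 CPM in resting replicate 6 and to 10190 to 13407 CPM in the other libraries. The study did not use resting and activated replicate 6, which share the number 8 in their labels, so results are also given without them, in a fit of 21 in place of 23 libraries. Resting replicates 5 and 6 also differed from resting replicates 1, 3 and 4 in several immediate-early genes, and activated replicates 1, 2 and 5 from activated replicates 3, 4 and 6 in *Il2ra* and *Socs2*, as the values below show, and in the summed level of 10 MHC class II genes (1131 to 2788 CPM against 6524 to 8083 CPM).

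**Figure D1:**
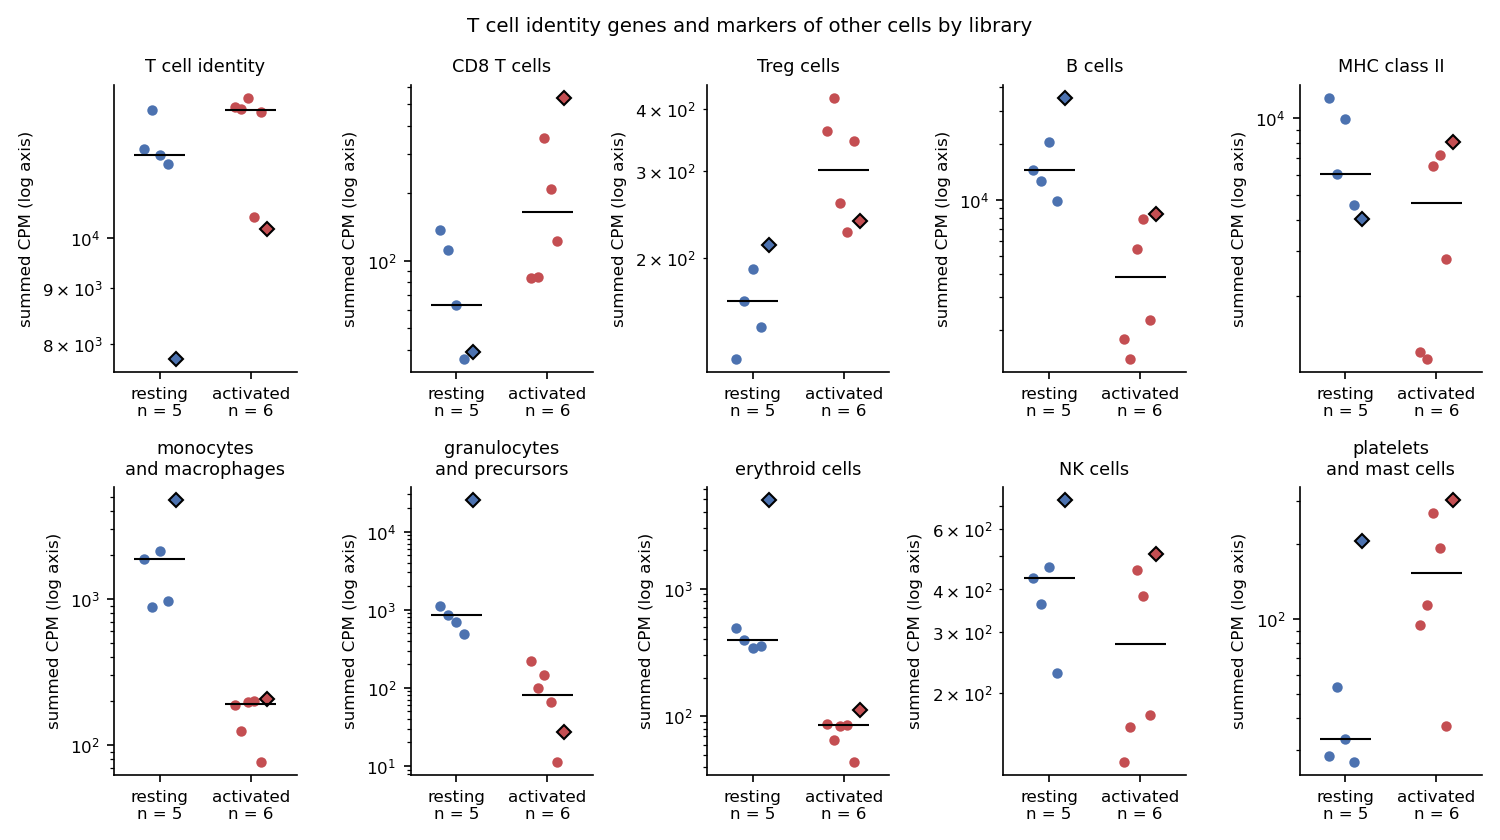
Summed CPM (log axes) of T cell identity genes and of 9 lists of markers of other cells, 1 point per library, with resting cells in blue (n = 5), activated cells in red (n = 6), medians as lines and replicate 6 as diamonds with a black edge. Resting replicate 6 is the highest library for granulocyte (25171 CPM), erythroid (4913 CPM), monocyte (4731 CPM) and B cell (35281 CPM) markers and the lowest for T cell identity genes (7755 CPM).

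Transcripts of myeloid and erythroid cells were lower after activation. All 17 tested granulocyte markers fell, 18 of 19 tested markers of monocytes and macrophages, 14 of 16 erythroid markers and 5 of 17 B cell markers, and the median log2 fold changes of the 4 lists were −6.45, −3.41, −4.15 and −0.57. Without replicate 6 of either state these counts were 15, 18, 12 and 8, with 2 erythroid markers higher, and the medians −3.40, −3.09, −3.14 and −1.08. Of 20 granulocyte and 25 monocyte and macrophage markers listed, only those with enough counts were tested. A marker near 0 after activation can pass that filter only through resting libraries, so such counts of falls are in part set by it. Over all genes 27.7% fell, or 28.7% without replicate 6. *S100a9*, a calcium-binding protein of neutrophils, stood at 46.6, 2.93, 18.7, 35.4 and 4260 CPM in resting cells and at 0.295 to 26.3 CPM (median 4.73) in activated cells. It was called with replicate 6 (log2 fold change −7.22 ± 1.64 (SE), adjusted p = 6.67e-04) and not without it (log2 fold change −1.78, adjusted p = 0.201). *Lyz2*, the lysozyme of myeloid cells, stood at 901, 377, 1081, 438 and 2543 CPM at rest and at 2.74 to 87.7 CPM (median 26) after activation, so that the groups did not overlap (log2 fold change −5.23 ± 0.72 (SE), adjusted p = 1.86e-06), and it was called without replicate 6 too (log2 fold change −4.41). The B cell gene *Cd79a* overlapped between the groups and did not pass the test (−0.35, adjusted p = 0.585). In a bulk sample, fewer cells of a type and less RNA per cell cannot be told apart.

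The CD8 genes moved the other way. *Cd8a* stood at 40.8, 32.9, 15.2, 10.8 and 11.4 CPM at rest and at 29.4 to 189.6 CPM (median 66) after activation, and *Cd8b1* at 95.8, 78.9, 48.1, 25.4 and 27.4 CPM and at 52.6 to 347 CPM (median 99.6). Both rose over 23 libraries (log2 fold changes 1.94 and 1.45, adjusted p = 9.8e-04 and 0.00723) with overlapping groups, and without replicate 6 *Cd8b1* was no longer called (log2 fold change 0.78, adjusted p = 0.109). *Foxp3*, the lineage factor of Treg cells, stood at 9.64, 11.7, 13.3, 13.4 and 15.9 CPM and at 9.4 to 38.8 CPM (median 17.2) (log2 fold change 0.71 ± 0.29 (SE), adjusted p = 0.0397). The part of these cells in the results that follow was not tested. Of 10 MHC class II genes 2 fell, and 6 fell without replicate 6. Over all genes 27.1% rose and 27.7% fell, or 24.5% and 28.7% without replicate 6. Of 6 tested NK cell markers 1 rose and 3 fell, and *Klrb1c*, which encodes the NK receptor NK1.1, stood at 12.9, 6.52, 9.78, 5.61 and 5.31 CPM at rest and at 0 to 2.26 CPM (median 0.943) in activated cells. Among 6 tested platelet and mast cell markers 2 rose and 1 fell, with the chemokine gene *Pf4* at 4.5, 12.1, 6.52, 1.73 and 13.9 CPM at rest and at 13.7 to 214 CPM (median 83.6) after activation (log2 fold change 3.72).

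The activation markers separated the states. *Il2ra*, which encodes CD25, the chain of the IL-2 receptor by which cells had been depleted before they were divided, stood at 3.54, 5.54, 2.72, 1.29 and 3.27 CPM at rest and at 54.7 to 178 CPM (median 103) after activation (log2 fold change 5.03 ± 0.42 (SE), adjusted p = 1.37e-09). *Socs2*, a suppressor of cytokine signalling, stood at 9.32, 6.52, 10.6, 4.74 and 15.9 CPM at rest and at 61.3 to 452 CPM (median 249.9) after activation (log2 fold change 4.76 ± 0.54 (SE), adjusted p = 1.22e-07). *Ccl22*, a chemokine that attracts CCR4-bearing cells, stood at 2.57, 3.26, 0.815, 1.29 and 2.04 CPM at rest and at 71 to 152 CPM (median 105) after activation (log2 fold change 5.74 ± 0.40 (SE), adjusted p = 5.3e-11). All 6 activated libraries lay above all 5 resting libraries for these genes. *Il2ra* and *Socs2* were higher in activated replicates 1, 2 and 5 (140.4, 178.1 and 168.7 CPM for *Il2ra*) than in replicates 3, 4 and 6 (64.8, 60.6 and 54.7 CPM). *Top2a*, the topoisomerase that untangles chromosomes before division, stood at 48.2, 62.9, 42.1, 35.8 and 127 CPM at rest and at 389 to 852 CPM (median 671) after activation (log2 fold change 3.36 ± 0.33 (SE), adjusted p = 1.43e-08). Its resting level was highest in replicate 6, and without replicate 6 of either state its log2 fold change was 3.83. In the left-out resting replicate 2 *Il2ra* and *Ccl22* had 0 counts, *Socs2* 1 and *Top2a* 5.

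**Figure D2:**
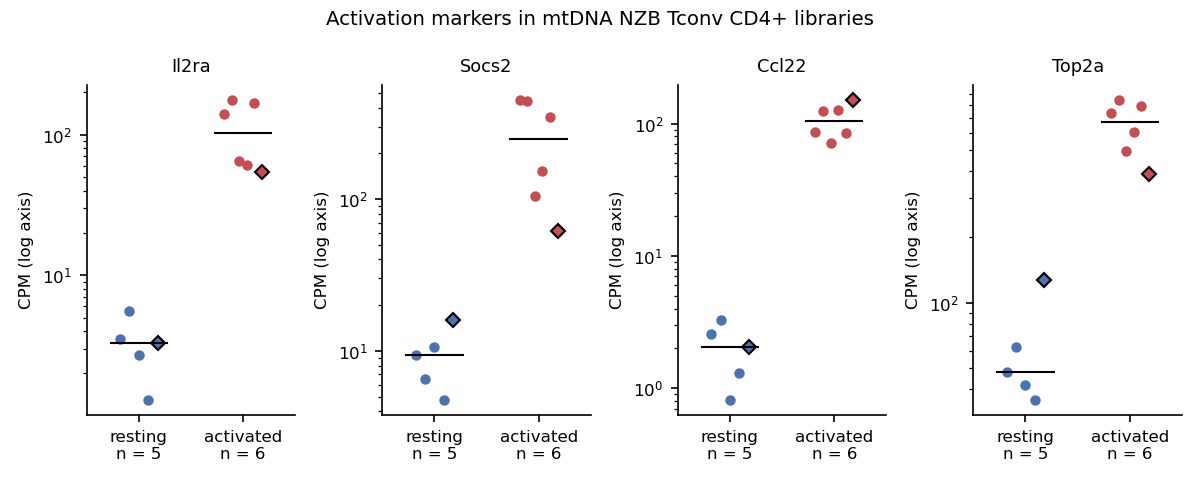
CPM (log axes) of 4 activation markers in each resting (blue, n = 5) and activated (red, n = 6) library, with medians as lines and replicate 6 as diamonds with a black edge. The states do not overlap for any of the 4 genes, and for *Top2a* resting replicate 6 (127.1 CPM) stands above the other resting libraries (35.8 to 62.9 CPM).

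Across the genome, 2903 of 10702 tested genes (27.1%) were up-regulated and 2962 (27.7%) down-regulated after activation (adjusted p no larger than 0.05). When the change also had to reach 2-fold, or 1 on the log2 scale, 1091 (10.2%) were higher and 1439 (13.4%) lower. Resting and activated libraries did not overlap for 3014 genes (28.2%), and the median log2 fold change of all genes was −0.027. Without replicate 6, 2653 of 10826 genes (24.5%) were up-regulated and 3106 (28.7%) down-regulated. Counts within gene lists are to be read beside the shares over all genes of the same fit. Of the 2530 genes called at 2-fold over 23 libraries, 2302 were among the 2722 called at 2-fold over 21, which is 90.99% of the first and 84.6% of the second list. With the library set as a term in the fit (3 sets of libraries, told apart by their reads per UMI), 1120 genes were higher and 1349 lower at 2-fold.

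**Figure D3:**
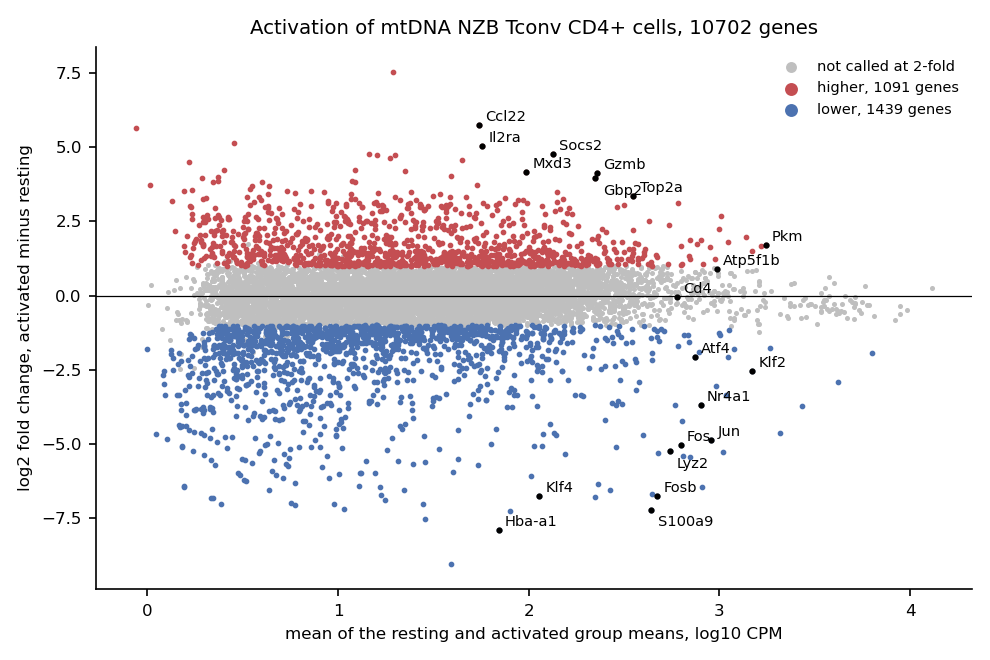
Log2 fold change on activation against the mean of the resting and activated group means (log10 CPM) for 10702 genes, with genes called at an adjusted p of at most 0.05 and at least 2-fold in red (1091 higher) or blue (1439 lower). Genes named in the text are marked, from *Ccl22* (5.74) to *Hba-a1* (−7.89), with *Cd4* (−0.057) near 0.

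Among called genes with non-overlapping groups and a mean of at least 10 CPM in a group, the 12 largest rises included the 3 markers *Ccl22*, *Il2ra* and *Socs2*. *Gzmb*, the granzyme B of cytotoxic granules, stood at 14.8, 50.2, 17.4, 22 and 20.02 CPM at rest and at 209 to 774 CPM (median 391) after activation (log2 fold change 4.13 ± 0.61 (SE), adjusted p = 5.05e-06). *Gbp2*, an interferon-induced GTPase, stood at 27.3, 38.5, 22.8, 24.6 and 19.6 CPM at rest and at 366 to 511 CPM (median 385) after activation (log2 fold change 3.97 ± 0.20 (SE), adjusted p = 3.18e-13). *Mxd3*, a MAX-binding factor that is expressed in dividing cells, stood at 6.75, 14, 8.42, 7.33 and 14.7 CPM at rest and at 88.5 to 231 CPM (median 205) after activation (log2 fold change 4.17 ± 0.30 (SE), adjusted p = 8.13e-11). Both groups were narrow for *Gbp2*, whereas *Gzmb* spread widely among the activated libraries. In activated replicates 1 to 6 *Gzmb* stood at 209, 224, 608, 510, 271 and 774 CPM. The summed level of *Cd8a* and *Cd8b1* was 83.4, 84.7, 353, 209, 122 and 537 CPM, in the same order. The part of CD8 cells in the rise of *Gzmb* was not tested. The other 6 were *Mgarp* (4.79), which encodes a mitochondrial protein, *Igfbp7* (4.73), *Drc1* (4.57), a gene of the dynein regulatory complex of cilia, *Map6* (4.24), a microtubule-associated protein, *Tg* (4.21), the thyroglobulin gene, and *Pimreg* (4.05), a gene of dividing cells. Their resting levels were at most 6.95 CPM. *Il2ra*, *Socs2*, *Igfbp7*, *Mxd3* and *Drc1* overlap another gene in the last 1000 bases, where reads of the partner could be counted, *Igfbp7* and *Mxd3* a protein-coding gene and *Drc1* a gene on its own strand.

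The 12 largest falls included genes of other blood cells. The haemoglobin genes *Hba-a1* (−7.89) and *Hba-a2* (−7.04), whose near-identical sequences can divide reads between them, and the granulocyte genes *Fcnb* (−7.52), *Chil3* (−7.27) and *Ltf* (−6.80), the lactoferrin gene, had their highest resting level in replicate 6. *Itgb2l*, *Krt80*, *Trem3* and *Ace* had 2, 1, 2 and 1 counts over the 6 activated libraries, against 267, 187, 241 and 176 over the 5 resting libraries. Scaled to library size these are ratios of 175 (95% interval 48.0 to 1453), 245.1 (43.5 to 9734), 158 (43.3 to 1312) and 230.7 (40.9 to 9164) of resting over activated cells, where the intervals cover counting error only. Most resting counts of *Itgb2l* and *Trem3* came from replicate 6, at 96.9 and 81.3 CPM, against at most 5.14 and 4.62 CPM in the other resting libraries, and without it their log2 fold changes were −3.69 and −4.13 (adjusted p = 0.0315 and 0.00645) in place of −7.19 and −7.01. Those of *Krt80* and *Ace* were −6.77 and −6.58. *Fn1*, the fibronectin gene, stood at 42.8, 18.6, 61.9, 20.3 and 32.7 CPM at rest and at 0 to 0.648 CPM (median 0.147) after activation (log2 fold change −6.90 ± 0.62 (SE), adjusted p = 4.05e-09). The other 2, *Fosb* and *Klf4*, are transcription factor genes described with the immediate-early and quiescence genes. Without replicate 6 the log2 fold changes of *Hba-a1*, *Hba-a2*, *Fcnb*, *Chil3* and *Ltf* were −4.75, −4.60, −4.62, −4.51 and −3.40, all called, and those of *Fn1*, *Fosb* and *Klf4* −7.06, −6.83 and −6.60.

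Genes of the cell cycle rose as a group. Of 54 tested genes of DNA replication 52 rose and 0 fell, 44 of them at least 2-fold, with a median log2 fold change of 1.53. *Mcm5*, a subunit of the replicative helicase, stood at 84.5, 94.2, 75.5, 54.3 and 163 CPM at rest and at 290.2 to 568 CPM (median 414) after activation (log2 fold change 2.15 ± 0.25 (SE), adjusted p = 1.92e-07). *Rrm2*, the small subunit of ribonucleotide reductase, stood at 16.1, 27, 14.1, 13.8 and 88.7 CPM at rest and at 101.4 to 299.8 CPM (median 216) after activation (log2 fold change 2.74 ± 0.43 (SE), adjusted p = 9.51e-06). *Tyms*, which makes thymidylate, had the largest rise of the list (log2 fold change 2.89), and *Mcm2*, *Cdc6*, which loads the helicase, and *Pcna*, the sliding clamp, also rose (1.37, 1.86 and 0.79). *Mcm5* and *Rrm2* did not overlap between the states, while *Cdc6* and *Pcna* did, at 4.5, 7.17, 4.35, 5.61 and 31.5 CPM and 172, 192, 165, 389 and 337 CPM at rest against 25.6 to 51.4 CPM (median 39.5) and 298 to 575 CPM (median 421). Their resting levels were highest in replicate 6 or in replicate 5, and without replicate 6 the median of the list was 1.85, with 52 of 54 genes higher.

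Genes of mitosis and chromosome segregation had the highest median log2 fold change of the 55 lists. Of 71 tested, 69 rose, 68 of them at least 2-fold, and 1 fell, with a median log2 fold change of 2.77. *Cdk1*, the kinase that drives entry into mitosis, stood at 19.6, 33.2, 22.3, 18.1 and 80.5 CPM at rest and at 172 to 325 CPM (median 254) after activation (log2 fold change 2.91 ± 0.34 (SE), adjusted p = 2.05e-07). *Aurkb*, a kinase of the chromosomal passenger complex, stood at 15.4, 24.1, 12.8, 5.61 and 32.3 CPM at rest and at 125 to 209 CPM (median 168) after activation (log2 fold change 3.23 ± 0.33 (SE), adjusted p = 3.56e-08). Its partner *Birc5*, which encodes survivin, and *Ccnb1*, the cyclin of CDK1, rose by 3.17 and 2.97 on the log2 scale. The spindle checkpoint kinase gene *Bub1* had the largest rise (3.51) from a resting level of at most 1.96 CPM, with overlapping groups. *Pttg1*, the securin gene, fell from 65.3, 62.6, 70.1, 92.3 and 65.8 CPM at rest to 35.1 to 56.7 CPM (median 41.5) (log2 fold change −0.71 ± 0.13 (SE), adjusted p = 6.21e-05). The summed level of the list was 1243 to 1695 CPM in resting replicates 1, 3, 4 and 5, 2954 CPM in resting replicate 6 and 6229 to 10561 CPM in activated cells, lowest in replicate 6. Without replicate 6 the median log2 fold change was 3.30, with 68 of 71 genes higher.

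Promoters of these 2 lists are shown because sites known from cell cycle genes could be looked up in them. Windows of 250 bases before to 50 after the start were taken from RefSeq on GRCm38.p6, another build than the GRCm39 of the counts, for 45 of 55 replication and 61 of 71 mitosis genes. An E2F site, searched as TTTCCCGC or TTTGGCGC on either strand, was present in 13 of 55 windows of replication genes (23.6%) and in 1.56% of all 32851 windows, or 3.11% of the windows of tested genes. The cell cycle genes homology region (CHR), searched as TTTGAA on either strand, was present in 45 of 68 windows of mitosis genes (66.2%) and in 17.9% of all windows, or 12.3% of the windows of tested genes. CCAAT, searched on either strand, was present in 73.5% of mitosis windows and 54.5% of replication windows, against 37.4% of all. Members among those with the highest activated level whose window holds the site are printed, in 30 bases from 5′ to 3′ on the strand of the gene, with the E2F site in capitals for the first 4 and the CHR in capitals for the others. A match is a string of letters and not evidence of binding.
Mcm3 (chr1:20820275-20820304, minus strand): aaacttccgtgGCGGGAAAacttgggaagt
Mcm6 (chr1:128359734-128359763, minus strand): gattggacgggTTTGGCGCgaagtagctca
Mcm5 (chr8:75109349-75109378, plus strand): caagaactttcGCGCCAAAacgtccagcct
Mcm7 (chr5:138172030-138172059, minus strand): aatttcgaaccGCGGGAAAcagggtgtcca
Top2a (chr11:99024195-99024224, minus strand): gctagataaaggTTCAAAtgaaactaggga
Ube2c (chr2:164769888-164769917, plus strand): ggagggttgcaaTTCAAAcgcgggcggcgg
Cenpa (chr5:30666890-30666919, plus strand): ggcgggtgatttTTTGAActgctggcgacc
Racgap1 (chr15:99651634-99651663, minus strand): ctggtgcgtgatTTTGAAccggatctggcg
Ccnb2 (chr9:70421533-70421562, minus strand): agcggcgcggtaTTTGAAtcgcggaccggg

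The E2F letters were thus found in helicase subunit genes on both strands and in both spellings, and the CHR letters in *Top2a*, the mitotic cyclin gene *Ccnb2*, the centromeric histone gene *Cenpa*, *Ube2c*, whose enzyme marks mitotic cyclins with ubiquitin, and *Racgap1*, a gene of cell division. Among genes described above, *Cdc6* also holds an E2F site and *Cdk1* a CHR, while *Mcm2*, *Pcna* and *Rrm2* hold no E2F letters and *Ccnb1* and *Birc5* no CHR letters in these windows, and *Aurkb* had no window. Ribosomal protein genes, which did not rise as a group, held the E2F letters in 1.32% and the CHR letters in 5.26% of 76 windows. Ribosome biogenesis genes held them in 4.41% and 13.2% of 68 windows. Replication genes held the CHR letters in 16.4% of their windows, against 17.9% of all windows and 12.3% of the windows of tested genes. Whether these sites had a part in any change was not tested.

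Of 26 tested G1 cyclins, cyclin-dependent kinases and inhibitors, 17 rose and 3 fell. *Cdk4*, the kinase of the D cyclins, stood at 115, 138, 133, 95.8 and 169 CPM at rest and at 299.6 to 445 CPM (median 382) after activation (log2 fold change 1.51 ± 0.16 (SE), adjusted p = 6.01e-08), and *Ccnd2* and *Ccnd3* rose by 0.99 and 0.89 with overlapping groups. The repressor gene *E2f7*, itself known as an E2F target, rose (2.46). *Cdkn1b*, which encodes the inhibitor p27, stood at 30.5, 25.7, 35, 53.5 and 38.4 CPM at rest and at 4.57 to 14.7 CPM (median 7.69) after activation (log2 fold change −2.09 ± 0.22 (SE), adjusted p = 5.68e-08). Every activated library lay below every resting library for *Cdkn1b* and above for *Cdk4*.

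**Figure D4:**
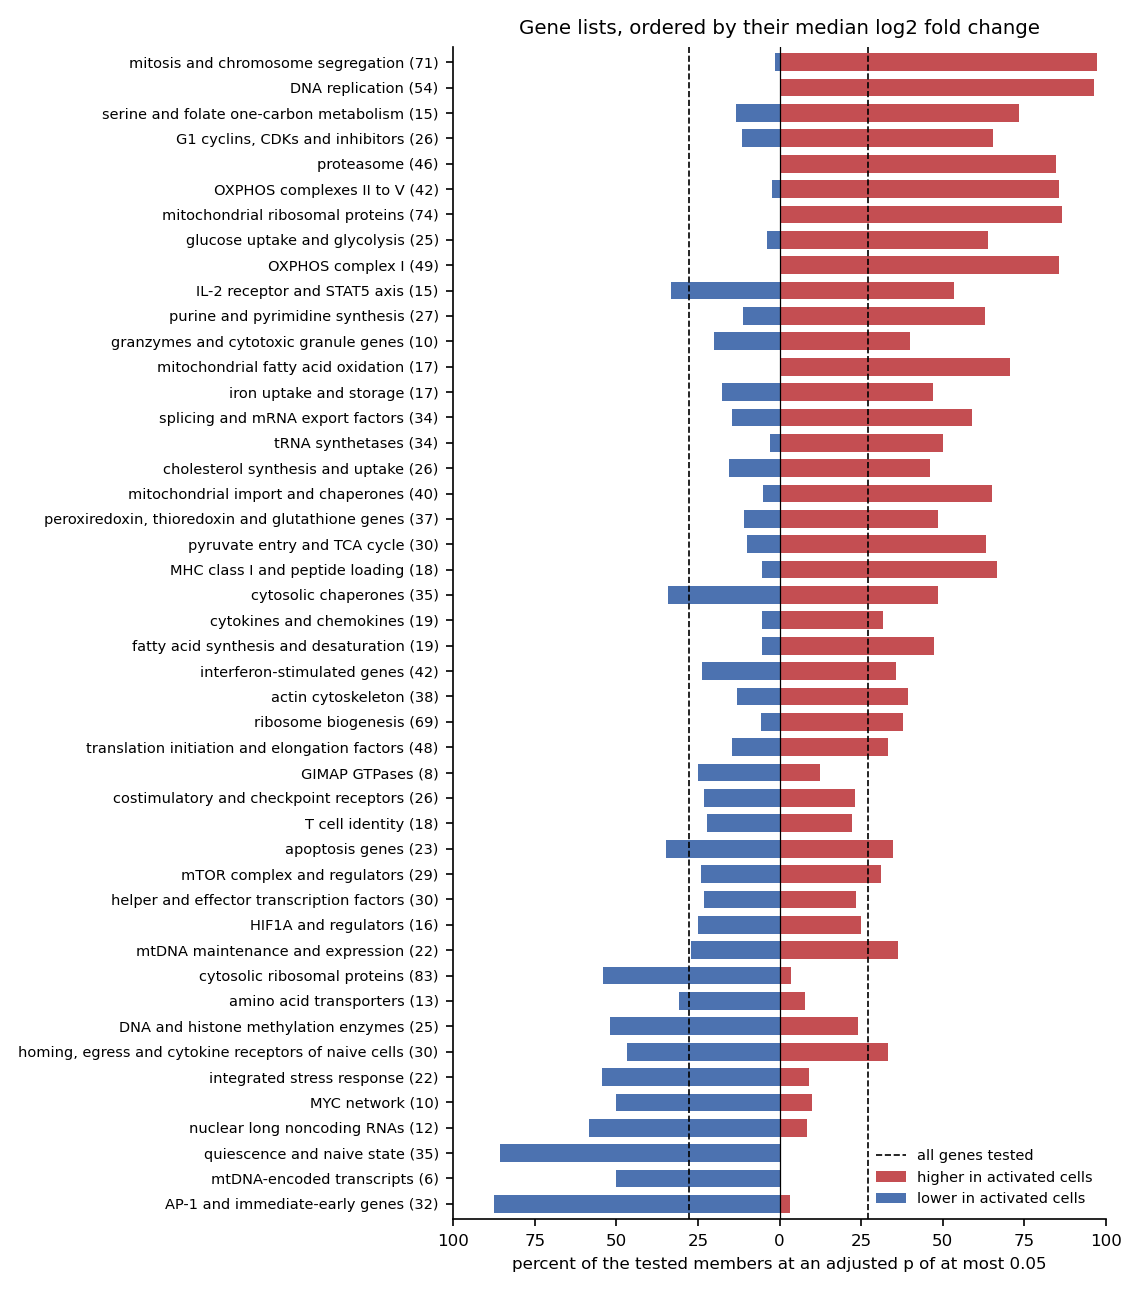
Percent of the tested members of each gene list (number tested in brackets) that were higher (red, right) or lower (blue, left) in activated cells at an adjusted p of at most 0.05, ordered by median log2 fold change, with dashed lines at the shares over all 10702 genes (27.1% and 27.7%). Mitosis, DNA replication, OXPHOS, mitochondrial ribosome and proteasome lists lie far to the right, and quiescence, AP-1 and cytosolic ribosomal protein lists to the left.

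Most glycolytic genes rose. Of 25 tested genes of glucose uptake and glycolysis 16 rose and 1 fell, with a median log2 fold change of 0.79, and their summed level went from 3441 to 4900 CPM at rest to 10095 to 13634 CPM. *Ldha*, the lactate dehydrogenase subunit that favours lactate production, stood at 534, 499, 468, 637 and 651 CPM at rest and at 1858 to 2678 CPM (median 2044) after activation (log2 fold change 1.98 ± 0.15 (SE), adjusted p = 1.95e-10). *Pkm*, pyruvate kinase, stood at 745, 797, 704, 912 and 946 CPM at rest and at 2178 to 3229.9 CPM (median 2685) after activation (log2 fold change 1.71 ± 0.14 (SE), adjusted p = 6.44e-10). *Tpi1*, triosephosphate isomerase, had the largest rise (2.98), and *Ldhb*, the subunit that favours lactate use, fell (−0.54). The groups were apart for *Ldha*, *Pkm*, *Tpi1* and *Ldhb*. The transporter gene *Slc2a1* did not pass the test (0.066, adjusted p = 0.817), nor did hexokinase 2, *Hk2*, over 23 libraries (0.55, adjusted p = 0.184), which was called without replicate 6 (1.01, adjusted p = 0.0146). *Tpi1* overlaps the protein-coding gene *Spsb2* in its last 1000 bases, on the other strand. Of 16 tested genes of HIF1A and its regulators 4 rose and 4 fell, close to the shares over all genes (27.1% and 27.7%). The targets *Bnip3* (2.98), a mitophagy receptor gene, and *Egln3* (2.02), a prolyl hydroxylase gene, were up-regulated, and *Hif1a* itself did not pass (0.57, adjusted p = 0.169).

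Most nuclear genes of oxidative phosphorylation rose, whereas 0 of 6 tested mtDNA-encoded transcripts did. Of 49 tested complex I genes 42 rose and 0 fell (median log2 fold change 0.74), and of 42 genes of complexes II to V 36 rose and 1 fell (median 0.84). *Atp5f1b*, the catalytic β subunit of ATP synthase, stood at 644, 617, 564, 738 and 830 CPM at rest and at 1019 to 1598 CPM (median 1216) after activation (log2 fold change 0.89 ± 0.11 (SE), adjusted p = 7.82e-07). *Cox5a*, of cytochrome c oxidase, stood at 259, 244, 250.9, 271 and 342 CPM at rest and at 487 to 675 CPM (median 627) after activation (log2 fold change 1.15 ± 0.12 (SE), adjusted p = 4.26e-08). *Sdhb*, the iron-sulfur subunit of succinate dehydrogenase, rose by 1.33 and *Slc25a4*, the ADP/ATP carrier, by 1.48. In complex I *Ndufc1* rose most (1.52), the assembly factor *Ndufaf2* rose by 0.92, and *Ndufs1* did not pass over 23 libraries (0.32, adjusted p = 0.176) and rose without replicate 6 (0.52, adjusted p = 0.0325). *Cox7a2l*, a supercomplex factor, fell (−0.61). Most changes were under 2-fold, since 16 of the 49 and 12 of the 42 genes reached it. Without replicate 6, 40 of 49 and 36 of 42 rose, with medians of 0.72 and 0.90.

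Of 15 mtDNA-encoded transcripts only 6 had enough counts to be tested, and 6 had no count in any library of the comparison. In the left-out resting replicate 2 the 15 transcripts summed to 13636 CPM, from 701 counts, against 158 to 252 CPM in the other resting libraries scaled the same way. *mt-Cytb*, the cytochrome b of complex III, stood at 106.1, 177, 137, 136 and 96.9 CPM at rest and at 30.1 to 95.1 CPM (median 48.4) after activation and fell (log2 fold change −1.38 ± 0.29 (SE), adjusted p = 2.93e-04), with the highest activated library just below the lowest resting library. *mt-Nd4* stood at 10.3, 9.45, 10.9, 13.8 and 6.54 CPM at rest and at 1.22 to 24.9 CPM (median 2.31) after activation and fell with overlapping groups (log2 fold change −1.40 ± 0.43 (SE), adjusted p = 0.00791). *mt-Nd1* did not pass (−0.28, adjusted p = 0.593). In all, 0 rose and 3 fell. The sum of the 15 was 162.3 to 253.8 CPM at rest and 49.6 to 114.4 CPM in activated replicates 2 to 6, and 244.2 CPM in activated replicate 1, the library with the lowest total. Counting of 3′ UTR regions limits what these values say of mtDNA-encoded RNA, for which few reads were counted.

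Genes of mitochondrial ribosomes and of protein import rose as well. Of 74 tested genes of mitochondrial ribosomal proteins 64 rose and 0 fell (median log2 fold change 0.80). *Mrpl51*, a large-subunit protein, stood at 31.8, 32.9, 24.7, 23.7 and 40.9 CPM at rest and at 66.6 to 113 CPM (median 90.5) after activation and had the largest rise (log2 fold change 1.51 ± 0.18 (SE), adjusted p = 1.95e-07), and *Mrpl16* rose by 0.90. Of 40 genes of protein import and mitochondrial chaperones 26 rose and 2 fell. Those that rose included the translocase genes *Tomm40* (0.86) and *Timm50* (1.05) and, with the largest rise, *Dnajc15* (2.08), a co-chaperone gene. The matrix chaperonin genes *Hspd1* and *Hspe1* did not pass (0.33 and −0.09, adjusted p = 0.245 and 0.677). For mtDNA maintenance and expression the picture was mixed, with 8 of 22 genes higher and 6 lower, beside 27.1% and 27.7% of all genes. *Tfam*, which packages mtDNA, rose (0.65), *Polg2*, the accessory subunit of the mtDNA polymerase, fell (−1.39), and the helicase gene *Twnk* did not pass (−0.25, adjusted p = 0.272). Of 30 genes of pyruvate entry and the TCA cycle 19 rose and 3 fell, with *Cs* (0.49), citrate synthase, *Mdh2* (0.83), malate dehydrogenase, and *Got2* (1.49), an aspartate aminotransferase, up-regulated. Of 17 genes of mitochondrial fatty acid oxidation 12 rose and 0 fell, led by the carnitine transferase gene *Cpt2* (1.11).

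**Figure D5:**
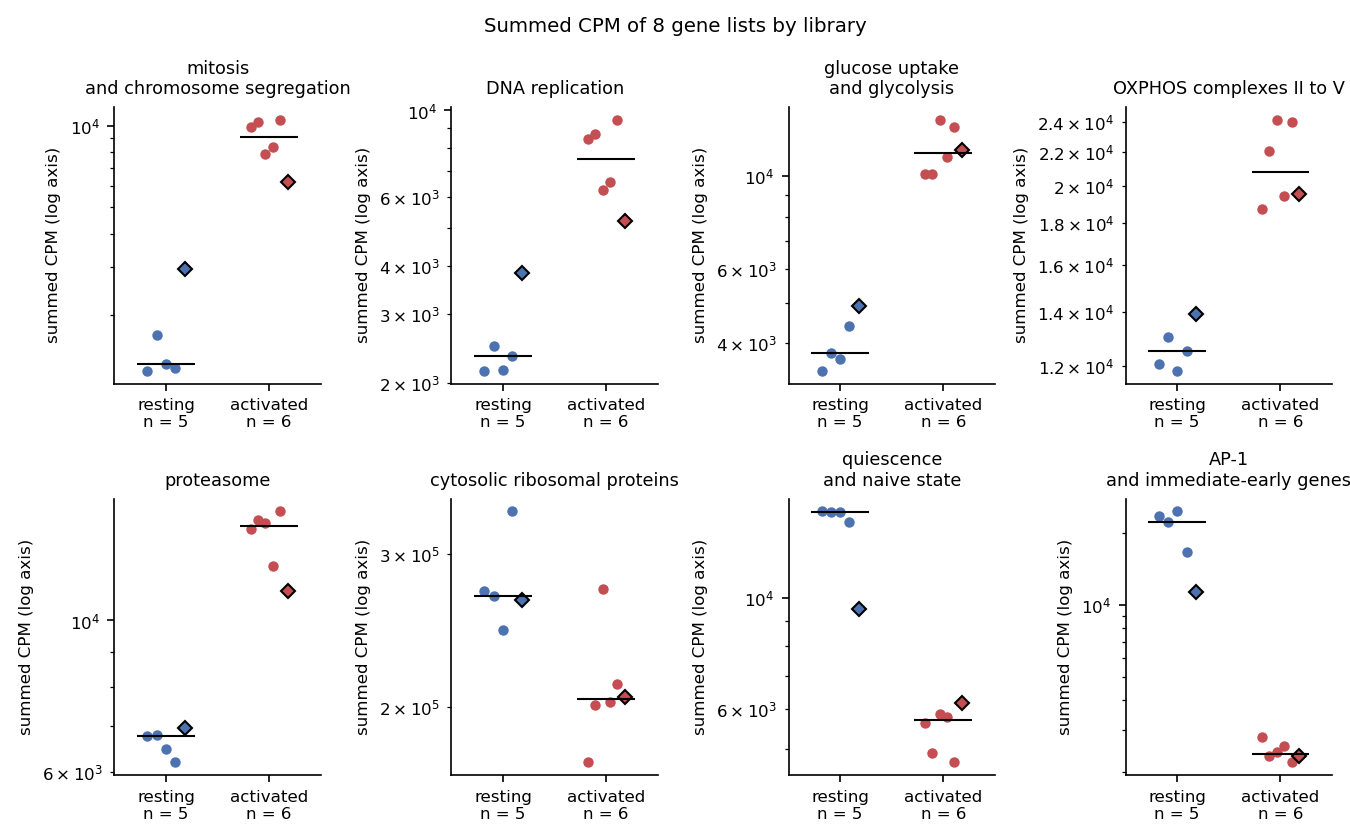
Summed CPM (log axes) of 8 gene lists in each resting (blue, n = 5) and activated (red, n = 6) library, with medians as lines and replicate 6 as diamonds with a black edge. Proteasome, glycolysis and OXPHOS sums are separate between the states, resting replicate 6 is the highest resting library for mitosis (2954 CPM) and DNA replication (3825 CPM), and it is the lowest for quiescence (9482 CPM) and AP-1 (11321 CPM) genes.

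Biosynthetic genes rose in most lists. In serine and folate one-carbon metabolism 11 of 15 genes rose and 2 fell (median log2 fold change 1.05). *Shmt1*, the cytosolic serine hydroxymethyltransferase, stood at 7.71, 12.4, 8.69, 7.33 and 12.3 CPM at rest and at 37.3 to 58.5 CPM (median 43.4) after activation (log2 fold change 2.22 ± 0.22 (SE), adjusted p = 1.77e-08). *Phgdh* and *Psat1*, the first enzymes of serine synthesis, and the mitochondrial enzymes *Shmt2* and *Mthfd2* rose by 1.58, 1.72, 1.10 and 1.05, and none of these 5 genes overlapped between the states. In its last 1000 bases *Shmt1* overlaps the protein-coding gene *Top3a* on its own strand, whose reads could be counted. Of 27 genes of purine and pyrimidine synthesis 17 rose and 3 fell, with *Dctpp1* (1.82), a nucleotide pyrophosphatase, *Paics* (1.04) of purine synthesis and *Cad* (0.90) of pyrimidine synthesis higher. *Adss1*, the adenylosuccinate synthase isoform known from muscle, fell (−2.26). Of 26 genes of cholesterol synthesis and uptake 12 rose and 4 fell. *Sqle*, squalene epoxidase of the synthetic pathway, rose (1.49), and the exporter *Abcg1* fell (−1.97). Among 19 genes of fatty acid synthesis 9 rose and 1 fell, with *Scd2* (1.76), a desaturase, *Fabp5* (1.97), a fatty acid binding protein, *Acaca* (0.81) and *Fasn* (0.55) higher.

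Of 13 amino acid transporter genes 1 rose and 4 fell, or 0 and 2 with mtDNA NZB libraries alone, beside 27.1% and 27.7% of all genes over 23 libraries. *Slc3a2*, the heavy chain of CD98, stood at 289.6, 316, 414, 493 and 579 CPM at rest and at 119.9 to 162 CPM (median 138) after activation (log2 fold change −1.61 ± 0.15 (SE), adjusted p = 1.15e-08), and *Slc38a2*, which carries small neutral amino acids, fell by 2.24 on the log2 scale, from a resting level that was highest in replicate 5. The light chain gene *Slc7a5* did not pass (0.0087, adjusted p = 0.983). Of 17 genes of iron uptake and storage 8 rose and 3 fell. *Cisd1*, an iron-sulfur protein of the outer mitochondrial membrane, stood at 18.3, 23.1, 25, 20.7 and 23.7 CPM at rest and at 74.3 to 107 CPM (median 96.2) after activation (log2 fold change 2.06 ± 0.13 (SE), adjusted p = 6.82e-12), and *Fth1*, the ferritin heavy chain, fell (−0.96). The transferrin receptor gene *Tfrc* had few counts, at most 3.68 CPM at rest and up to 17.5 CPM after activation, and did not pass (1.15, adjusted p = 0.173).

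Genes of protein synthesis did not move as one. Of 83 tested cytosolic ribosomal protein genes 3 rose and 45 fell, 1 in each direction by 2-fold, with a median log2 fold change of −0.34. *Rps27l*, a p53-responsive paralog, stood at 61.1, 80.5, 69.5, 90.1 and 159 CPM at rest and at 284 to 428 CPM (median 378) after activation and had the largest rise (log2 fold change 2.01 ± 0.22 (SE), adjusted p = 6.95e-08), and *Rpl22l1* the largest fall (−1.42). *Rpl3* did not pass (−0.081, adjusted p = 0.502), and *Rps6* was lower by 0.30 on the log2 scale (adjusted p = 0.0492), a call lost without replicate 6 (adjusted p = 0.0579). These genes have many processed pseudogenes, so their counts depend on how shared reads were treated. In relative terms the list summed to 245420 to 335650 CPM at rest and 172850 to 273550 CPM after activation. Of 69 ribosome biogenesis genes 26 rose and 4 fell, most by little (median 0.18). Nucleolin, *Ncl*, rose by 0.47, the exosome subunit gene *Exosc8* by 1.17, and *Fbl*, *Nop56* and *Polr1b* did not pass (0.019, −0.16 and 0.004). Of 34 tRNA synthetase genes 17 rose and 1 fell. *Wars1*, the tryptophanyl-tRNA synthetase, which interferon is known to induce, stood at 47.9, 43.7, 40.2, 29.3 and 30.2 CPM at rest and at 145 to 195 CPM (median 177) after activation and rose most (log2 fold change 2.18 ± 0.13 (SE), adjusted p = 4.37e-12).

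Of 48 translation factor genes 16 rose and 7 fell, beside 27.1% and 27.7% of all genes. *Eif5a* (0.82) and *Eif3l* (1.02) were higher, *Eif4a2* (−1.78) was lower and *Eef2*, elongation factor 2, did not pass (−0.012, adjusted p = 0.938). In the MYC network 1 of 10 genes rose, *Mxd3* as above, and 5 fell, among them *Mnt* (−1.25). *Myc* itself stood at 163, 121, 152, 78.5 and 59.7 CPM at rest and at 57.7 to 161 CPM (median 97.7) after activation with overlapping groups (log2 fold change −0.21 ± 0.24 (SE), adjusted p = 0.467). Of 29 genes of mTOR complexes and their regulators 9 rose and 7 fell, close to the shares over all genes (27.1% and 27.7%). *Mtor* and *Rptor* did not pass (0.02 and −0.23), the TSC subunit genes *Tbc1d7* and *Tsc1* rose and fell (1.97 and −0.50), and *Rictor*, of mTOR complex 2, fell (−1.32).

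The proteasome list was the most uniform of those for protein turnover. Of 46 tested genes 39 rose and 0 fell (median log2 fold change 0.86), and 41 rose without replicate 6 (median 0.97). *Psmb5*, a catalytic subunit, stood at 43.1, 46.6, 38, 71.2 and 70.7 CPM at rest and at 100.6 to 176 CPM (median 161) after activation (log2 fold change 1.49 ± 0.18 (SE), adjusted p = 2.66e-07). *Psmb9*, the immunoproteasome subunit, stood at 237, 256, 271, 127 and 137 CPM at rest and at 549 to 693 CPM (median 592) after activation (log2 fold change 1.56 ± 0.15 (SE), adjusted p = 1.97e-08), and *Psmd1* and *Psme1* rose by 1.16 and 0.75. Resting and activated libraries did not overlap for 31 of the 46, beside 28.2% of all genes tested. *Psmd1* overlaps the protein-coding gene *Gm21972* on its own strand in its last 1000 bases. Cytosolic chaperone genes were divided, with 17 of 35 higher and 12 lower. The heat shock gene *Hspa1b*, which has a near-identical copy, was widely spread among resting libraries, at 3999.6, 82.1, 219, 3883 and 2065 CPM, and stood at 3.35 to 171 CPM (median 19.7) after activation (log2 fold change −5.27 ± 1.38 (SE), adjusted p = 0.00235). *Hspb1* fell (−5.98), *Hsp90aa1* fell (−1.11) and was not called without replicate 6 (adjusted p = 0.0651), and the constitutive *Hspa8* did not pass (0.081, adjusted p = 0.772). Resting replicate 3 lay below the highest activated library for *Hspa1b*.

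In the integrated stress response 2 of 22 genes rose and 12 fell. *Atf4*, its central transcription factor, stood at 1269, 1198, 1307, 1192 and 1036 CPM at rest and at 246 to 332 CPM (median 288) after activation (log2 fold change −2.07 ± 0.09 (SE), adjusted p = 5.16e-14). *Ppp1r15a*, the phosphatase subunit GADD34, stood at 1977, 1400.2, 1624, 826 and 484 CPM at rest and at 17.4 to 40.5 CPM (median 27.7) after activation (log2 fold change −5.42 ± 0.32 (SE), adjusted p = 3.45e-12). Both were lower in every activated library, *Atf4* with little spread within the groups. *Trib3*, a target of ATF4, rose (0.94) with overlapping groups. Of 37 peroxiredoxin, thioredoxin and glutathione genes 18 rose and 4 fell. Among members with a mean of at least 10 CPM in a group, thioredoxin, *Txn1*, rose most (1.64), and *Nfe2l2*, the transcription factor NRF2, fell most (−1.36). *Gpx1*, glutathione peroxidase 1, stood at 606, 507, 646, 649 and 1372 CPM at rest, highest in replicate 6, and at 502 to 746 CPM (median 573) after activation, and did not pass (−0.36, adjusted p = 0.11).

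Genes of the IL-2 and STAT5 axis were divided, 8 of 15 higher and 5 lower. *Il2rb*, the β chain of the IL-2 receptor, stood at 118, 130, 134, 125 and 127 CPM at rest and at 539.6 to 1042 CPM (median 702) after activation (log2 fold change 2.53 ± 0.15 (SE), adjusted p = 5.94e-12). *Cish*, a STAT5 target, stood at 32.5, 34.9, 35.6, 90.1 and 114 CPM at rest and at 80.8 to 497 CPM (median 259) after activation (log2 fold change 2.10 ± 0.46 (SE), adjusted p = 4.65e-04), and *Stat5a* at 101.3, 89.3, 84.5, 413 and 329 CPM and at 70.5 to 104 CPM (median 85.7) (log2 fold change −1.27 ± 0.30 (SE), adjusted p = 9.39e-04). *Il2rb* was separate in all libraries, while *Cish* and *Stat5a* overlapped and their resting levels were highest in replicates 5 and 6. Of 19 tested cytokine and chemokine genes 6 rose and 1 fell over 23 libraries, and 4 rose and 4 fell without replicate 6. Over all genes 27.1% rose and 27.7% fell, or 24.5% and 28.7% without replicate 6. *Ccl22* rose most, *Ccl1* rose from at most 1.96 CPM to 3.56 to 12.4 CPM (median 8.13), and *Ccl5* fell (−1.29). *Il2* and *Ifng* did not pass over 23 libraries (−0.60 and −0.84, adjusted p = 0.186 and 0.0705), and without replicate 6 *Ifng* was lower (−1.12, adjusted p = 0.0327), with *Il2* at most 11.4 CPM in any resting and 6.79 CPM in any activated library.

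Among 26 costimulatory and checkpoint receptor genes 6 rose and 6 fell, close to the shares over all genes (27.1% and 27.7%). *Lag3*, an inhibitory receptor, stood at 4.18, 11.1, 4.62, 5.61 and 4.5 CPM at rest and at 22.6 to 124 CPM (median 56.2) after activation (log2 fold change 3.41 ± 0.47 (SE), adjusted p = 2.25e-06). *Cd69*, an early activation antigen, stood at 72.3, 42, 37.5, 71.2 and 64.2 CPM at rest and at 2.44 to 8.9 CPM (median 5.34) after activation (log2 fold change −3.56 ± 0.46 (SE), adjusted p = 9.46e-07). *Tnfrsf4*, which encodes OX40, rose with overlapping groups (1.49), and *Ctla4*, *Pdcd1* and, over 23 libraries, *Icos* did not pass (0.077, 0.49 and 0.66), and *Icos* rose without replicate 6 (0.90, adjusted p = 0.0213). The early antigen *Cd69* was thus higher in resting cells, as were the immediate-early genes below. Of 30 helper and effector transcription factor genes 7 rose and 7 fell, again close to the shares over all genes. *Tbx21*, the TH1 factor T-bet, rose by 1.61, *Irf8* by 1.07 and *Batf* by 0.71, while *Gata3* and *Irf4* did not pass (−0.19 and −0.05) and *Hlx* fell (−2.88). The receptor gene *Il12rb2* rose by 3.08.

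Interferon-stimulated genes moved in both directions, 15 of 42 up and 10 down, beside 27.1% and 27.7% of all genes. Their median log2 fold change was 0.29. The sum of the list went from 2980 to 3718 CPM at rest to 6853 to 8255 CPM. *Gbp2* rose as above, and *Isg15*, a ubiquitin-like modifier, *Irf7* and *Oasl1* fell (−2.001, −1.13 and −3.36), each without overlap between the states. *Ifit3* did not pass (0.63, adjusted p = 0.138). Of 18 genes of MHC class I and peptide loading 12 rose and 1 fell, with the peptide transporter gene *Tap1* (1.06) higher and *H2-Q4* (−1.28), of a multigene family, lower, and *H2-K1* and *B2m* not passing (−0.21 and −0.93). Without replicate 6, 9 rose and 2 fell, and *H2-K1* was lower (−0.33, adjusted p = 0.0174). Of 10 tested granzyme and cytotoxic granule genes 4 rose and 2 fell, beside 27.1% and 27.7% of all genes. The perforin gene *Prf1* did not pass (0.44, adjusted p = 0.494), and serglycin, *Srgn*, fell (−0.94).

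Genes of quiescence fell. Of 35 tested genes of quiescence and the naive state 30 fell and 0 rose, 22 of them at least 2-fold, with a median log2 fold change of −1.23. *Klf2* stood at 3593, 3458, 3499, 1342 and 812 CPM at rest and at 390.1 to 494 CPM (median 428) after activation (log2 fold change −2.55 ± 0.26 (SE), adjusted p = 3.07e-08). *Klf4*, a related factor that restrains proliferation, stood at 270, 224, 331, 174 and 128 CPM at rest and at 0.737 to 5.85 CPM (median 2.79) after activation (log2 fold change −6.75 ± 0.36 (SE), adjusted p = 8.07e-13). *Klf2* was lower in resting replicates 5 and 6 than in the other resting libraries and still above every activated library. *Btg1*, an antiproliferative gene, fell (−2.48), and *Tcf7*, which encodes TCF1, fell less (−0.52), with overlapping groups. *Bach2* did not pass over 23 libraries (−0.31, adjusted p = 0.123) and was called without replicate 6 (−0.52, adjusted p = 0.0202).

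Receptors of homing, egress and survival were divided, 10 of 30 higher and 14 lower, beside 27.1% and 27.7% of all genes. *S1pr1*, the sphingosine-1-phosphate receptor for egress, stood at 293, 401, 414, 512 and 288 CPM at rest and at 91.3 to 162 CPM (median 139.9) after activation (log2 fold change −1.51 ± 0.17 (SE), adjusted p = 1.44e-07). *Ccr7*, the receptor for homing to lymph nodes, stood at 1212, 1302, 1306, 1984 and 1255 CPM at rest and at 474 to 777 CPM (median 579.6) after activation (log2 fold change −1.26 ± 0.16 (SE), adjusted p = 9.46e-07). The chemokine receptor gene *Cxcr4* and *Il7r*, the IL-7 receptor gene, also fell (−3.36 and −1.19), *Il7r* with overlapping groups. Of 8 GIMAP GTPase genes 1 rose, *Gimap7* (1.26), and 2 fell, *Gimap6* (−1.16) and *Gimap8* (−1.47), beside the same shares of all genes. *Gimap7* overlaps the protein-coding gene *Gm28053* on its own strand in its last 1000 bases. Apoptosis genes were balanced, 8 higher and 8 lower of 23, beside 27.1% and 27.7% of all genes. The survival genes *Bcl2* (1.33) and *Bcl2l1* (1.79), which encodes BCL-XL, rose, *Pmaip1* (−2.90), which encodes the pro-apoptotic NOXA, fell, and *Bcl2l11* and *Fas* did not pass (−0.08 and 0.026).

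AP-1 and immediate-early genes were high in resting cells. Of 32 tested, 28 fell, each at least 2-fold, and 1 rose, with a median log2 fold change of −2.45 (30 of 33 and −2.69 without replicate 6). *Fos* stood at 2126, 1397, 1956, 340.3 and 240.3 CPM at rest and at 9.14 to 86.3 CPM (median 38.5) after activation (log2 fold change −5.02 ± 0.61 (SE), adjusted p = 3.59e-07). *Jun*, its AP-1 partner, stood at 2707, 2752, 2409, 562 and 311 CPM at rest and at 37.1 to 89.5 CPM (median 58.3) after activation (log2 fold change −4.87 ± 0.43 (SE), adjusted p = 2.96e-09). *Fosl2* stood at 22.5, 45, 45.6, 295 and 242 CPM at rest and at 2.92 to 7.46 CPM (median 5.19) after activation (log2 fold change −4.50 ± 0.59 (SE), adjusted p = 9.39e-07). Activated libraries lay below resting libraries for all 3, but *Fos* and *Jun* were lower and *Fosl2* higher in resting replicates 5 and 6 than in resting replicates 1, 3 and 4. *Nr4a1*, an orphan nuclear receptor induced by T cell receptor signals, stood at 1300, 1788, 1721, 1692 and 906 CPM at rest and at 98.2 to 135 CPM (median 117) after activation (log2 fold change −3.68 ± 0.17 (SE), adjusted p = 7.2e-14). *Fosb* stood at 1304, 836, 1332, 669 and 534 CPM at rest and at 4.87 to 14.6 CPM (median 9.06) after activation (log2 fold change −6.76 ± 0.38 (SE), adjusted p = 1.64e-12). *Egr1* fell (−2.46), and *Gadd45g* was the gene that rose (0.58), a call lost without replicate 6 (adjusted p = 0.195).

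In the cytoskeleton and nucleus the lists were divided. Of 38 actin cytoskeleton genes 15 rose and 5 fell, with *Vim* (1.67), which encodes vimentin, and cofilin, *Cfl1* (0.41), higher, lamin A, *Lmna* (−2.39), lower and *Actb* not passing (0.24, adjusted p = 0.283). Of 34 splicing and mRNA export genes 20 rose and 5 fell: *Snrpd1*, a core snRNP protein, and *Alyref*, an export adaptor, rose by 1.21 and 1.33, and *Clk1*, a kinase of splicing factors, stood at 121, 149.9, 147, 326 and 199.8 CPM at rest and at 18.9 to 49.7 CPM (median 33.2) after activation (log2 fold change −2.45 ± 0.24 (SE), adjusted p = 1.65e-08). Among 12 nuclear long noncoding RNAs 1 rose and 7 fell. *Snhg12* fell most (−2.24), *Malat1* and *Neat1* fell with overlapping groups (−1.57 and −0.98), and *Gas5* did not pass (−0.20, adjusted p = 0.307). Of 25 DNA and histone methylation enzymes 6 rose and 13 fell. *Dnmt1*, the maintenance DNA methyltransferase, and *Ezh2*, the methyltransferase of Polycomb complex 2, rose by 1.67 and 2.13, and the demethylase gene *Kdm6b* stood at 219, 294, 317, 541 and 388 CPM at rest and at 25.7 to 41 CPM (median 34) after activation (log2 fold change −3.39 ± 0.19 (SE), adjusted p = 2.18e-12).

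Whether the response of mtDNA NZB cells differed from that of mtDNA B6 cells was tested as an interaction. Over 23 libraries 0 of 10702 genes (0.0%) passed at an adjusted p of at most 0.05 in edgeR's test, 1618 had an unadjusted p under 0.05, and DESeq2 called 1. Without replicate 6 of either mtDNA NZB state, 113 of 10826 genes (1.04%) passed, 95 with a larger and 18 with a smaller value in mtDNA NZB cells, so these calls rest on leaving out those libraries. Among the lists, 12 of 71 mitosis genes and 9 of 54 replication genes passed, all with the larger rise in mtDNA NZB cells. Fewer passed in other lists, among them complex I (3 of 49), peroxiredoxin, thioredoxin and glutathione genes (3 of 37) and G1 cyclins, kinases and inhibitors (2 of 26). In purine and pyrimidine synthesis 2 of 27 passed and in iron uptake and storage 2 of 17. Of 16 erythroid markers 2 passed, with the higher value in mtDNA NZB cells, and of 8 GIMAP genes 1, with the lower value. Of 42 genes of complexes II to V and 40 of mitochondrial import and chaperones 0 passed. For *Cdk1* the mtDNA NZB minus mtDNA B6 response was 1.63 ± 0.33 (SE), adjusted p = 0.0422, for *Rrm2* 1.79 ± 0.38 (SE), adjusted p = 0.0439, and for *Cdc6* 1.72 ± 0.39 (SE), adjusted p = 0.0447, on the log2 scale. All mtDNA B6 libraries were kept in this fit. Their resting means were 61.4, 46.2 and 17.7 CPM for these genes and 324, 166 and 262 CPM for *Ltf*, *Chil3* and *Hba-a1*. *Cdk1*, *Rrm2* and *Cdc6* stood at 18.1 to 33.2, 13.8 to 27 and 4.35 to 7.17 CPM in the mtDNA NZB resting libraries kept. Their activated means, replicate 6 included, were 259, 212 and 37.8 CPM in mtDNA NZB and 233, 173 and 39.5 CPM in mtDNA B6 cells. The part of resting levels in these calls was not tested. *Mrpl51* and *Cisd1* responded more (1.04 ± 0.23 (SE), adjusted p = 0.0439, and 0.81 ± 0.16 (SE), adjusted p = 0.0422) and *S1pr1* and *Bach2* had the lower value in mtDNA NZB cells (−0.96 ± 0.24 (SE), adjusted p = 0.0488, and −0.96 ± 0.24 (SE), adjusted p = 0.0498). With the library set as a term and without replicate 6, 0 genes passed, with 1783 at an unadjusted p under 0.05. The sets are numbered from the fewest reads per UMI. Activated mtDNA B6 libraries were of sets 1 and 2, and resting ones of sets 2 and 3. Both mtDNA NZB states held all 3 sets. State and library set were thus partly confounded in mtDNA B6 cells, and their parts in the 113 calls cannot be told apart. The haplotypes share no resting libraries, and each has its own activated libraries.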

How the data were processed

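Bulk 3′ RNA-seq libraries (MARS-seq) of resting and activated splenic Tconv CD4+ cells were analysed. The authors trimmed reads with cutadapt, aligned them with STAR to 3′ UTR regions of 1000 bases (GRCm39, Ensembl), counted them with htseq-count, and removed duplicates by UMI with a correction for saturation. The deposited table holds UMI-corrected counts per gene. A second deposited table, read here as counts before UMI removal, served as an alternative, and 1 of its columns matched no sample and was not used. Tool versions are not given in the sources used here, nor whether strand was used in counting. The labels give 30 ng of RNA per library and the methods 60 ng.

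Of 55414 genes 25030 had a count, and 0.0272% of counts fell in genes outside the annotation used for symbols. Counts were tested with edgeR 4.0.16 (R 4.3.3; filterByExpr, TMM, quasi-likelihood) in 1 fit of 23 libraries in 4 groups, with p-values adjusted by Benjamini-Hochberg across the genes tested. Alternatives used DESeq2 1.42.0. The scripts were tested on simulated data. The methods of the study name DESeq2.

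Library totals (641467 to 6449395 counts) limit precision, most for genes under 10 CPM in activated replicate 1. Nothing says that replicates are separate mice, so p-values measure the spread between these libraries, which may be technical. Intervals cover counting error only.

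The libraries and 55 gene lists were chosen with earlier results of these data known. Genes named were the markers, the 12 largest rises and falls among genes called, without overlap and with a mean of at least 10 CPM in a group (predicted genes and clones skipped), anchor genes of each list, and the called extremes, at the same mean, of lists with at least 5 tested members. Overlap with other genes was examined over the last 1000 bases. Promoter windows came from RefSeq on GRCm38.p6. Some genes that this rule names, and 1 of the promoter stretches, are not reported here.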

Additional observations from a re-analysis of the deposited data

Results flagged for a closer look

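In 68 of 668 groups of 5 or 6 libraries, 1 library lay farther from its nearest neighbour than Dixon's test allows at the 95% level. A chance rate of about 1 in 20 groups holds for independent, normally distributed values from genes chosen without regard to these libraries. Some genes here, such as *Hba-a1* and *Ltf*, were named for falls to which a high resting replicate 6 contributed. Summed levels also share members with the named genes. In activated cells *Krt80*, *Ace* and *Ncr1* had 1 count each over 6 libraries, which alone flags a library. The 68 of 668 groups can therefore not be set against that rate. Of the 68 values 34 belonged to resting replicate 6, 11 to resting replicate 5 and 10 to activated replicate 1. In resting replicate 6 these were *Hba-a1* at 604, *Fcnb* at 248, *Chil3* at 672, *Itgb2l* at 96.9, *Hba-a2* at 218, *Trem3* at 81.3, *Ltf* at 1980, *Hlx* at 42.5, *Cdc6* at 31.5, *Rrm2* at 88.7, *Cdk1* at 80.5, *Cox5a* at 342, *Fads2* at 15.1, *Acadl* at 141, *Slc1a5* at 182, *Slc43a2* at 21.3, *Gpx1* at 1372, *Tcf7* at 756, *B2m* at 465, *Ezh2* at 57.6, *S100a8* at 358, *S100a9* at 4260, *Camp* at 3849, *Mpo* at 990.2, *Retnlg* at 369, *Hbb-bs* at 1866 and *Mcpt8* at 36.8 CPM, and summed levels of 7754 CPM for T cell identity, 3825 CPM for DNA replication, 2954 CPM for mitosis and chromosome segregation, 9482 CPM for quiescence and naive state, 25171 CPM for markers of granulocytes and precursors, 4913 CPM for markers of erythroid cells and 206 CPM for markers of platelets and mast cells.

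In resting replicate 5 these were *Pttg1* at 92.3, *Ccnd2* at 227, *Rpl3* at 2782, *Rps6* at 870.4, *Slc2a1* at 232, *Cox7a2l* at 648, *Timm50* at 38.4, *Ppat* at 31.9, *Tbc1d7* at 6.47 and *Ccr7* at 1984 CPM, and a summed level of 7527 CPM for homing, egress and cytokine receptors of naive cells. In activated replicate 1 these were *Npm1* at 48.3, *Fbl* at 20.5, *mt-Nd1* at 23.4, *mt-Nd4* at 24.9, *Mrps18b* at 4.39, *Mterf4* at 11.7, *Slc25a37* at 17.5, *S100a8* at 13.2 and *Retnlg* at 1.46 CPM, and a summed level of 244 CPM for mtDNA-encoded transcripts. In activated replicate 3 these were *Krt80* at 0.324, *Imp4* at 5.19, *Ndufa4l2* at 0.648 and *Cox7a2l* at 504 CPM. In activated replicate 4 these were *Hba-a2* at 2.23, *Ace* at 0.445 and *Ncr1* at 0.445 CPM. In activated replicate 6 these were *Epas1* at 18.4 CPM, and a summed level of 27341 CPM for actin cytoskeleton. In resting replicate 3 these were *Gzmb* at 50.2 and *Lag3* at 11.1 CPM. In activated replicate 5 this was a summed level of 1808 CPM for cholesterol synthesis and uptake. In resting replicate 1 this was *C1qa* at 11.6 CPM. Activated replicate 1 had the lowest total of the activated libraries, and several of its values rest on few counts.

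Only the alternative with all 24 libraries used resting replicate 2. This library lay above the other 5 resting libraries, scaled the same way, in the summed level of 10 of the 55 lists. The mtDNA-encoded transcripts were farthest above them, at 13636 CPM from 701 counts, against at most 252 CPM in the others. The 17 B cell markers summed to 36842 CPM from 1894 counts, against at most 31841 CPM. The other sums were 42969 CPM for actin cytoskeleton, 11204 CPM for MHC class I and peptide loading, 5252 CPM for mitochondrial ribosomal proteins, 2684 CPM for the pyruvate entry and TCA cycle list, 2412 CPM for nuclear long noncoding RNAs, 2004 CPM for tRNA synthetases, 1050 CPM for mitochondrial fatty acid oxidation and 836 CPM for one-carbon metabolism.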

How the results depend on the processing

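The results were recomputed under other settings and under 3 combinations with libraries of label number 8 left out that were added after seeing the data. Among 10702 genes tested, 1091 were at least 2-fold higher and 1439 at least 2-fold lower after activation. These counts were 1000 and 1474 with all 24 libraries, 926 and 1143 with mtDNA NZB libraries alone, 1021 and 1550 with DESeq2, 1008 and 1531 with RLE size factors and 1151 and 1828 with the second count table. They moved further without a filter on low counts (2205 lower), with a mean count of at least 30 (623 higher and 941 lower), and with the adjusted p alone (2903 higher and 2962 lower). Leaving out 1 mtDNA NZB library at a time gave 978 to 1208 higher and 1392 to 1595 lower. The test of the difference from mtDNA B6 cells called 0 genes, 113 over 21 libraries without replicate 6, 1 with DESeq2, and 0 to 1 with 1 library left out at a time, the 1 without activated replicate 6. Fewer genes or fewer libraries enter some of these settings by construction, and the cause of the other changes was not tested.

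In 4 mtDNA NZB pairs a resting and an activated library share a label number, which is not stated to mark a mouse, and the deviations of the paired libraries from their group means correlated at −0.145, −0.0464, 0.00981 and −0.0854 (Pearson's r over genes), so the numbers were not taken to pair the libraries. With the number as a replicate block 888 genes were at least 2-fold higher and 1129 lower, and with the block and without label number 8, 960 and 1168, with 8 genes called for the difference from mtDNA B6 cells.

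Of 270 named genes tested and reported 208 were called. None of the 208 changed sign in any alternative, and 36 fell out of the call in at least 1. Of the uncalled, 27 changed sign. The log2 fold changes with the other sign were, with the replicate block, *Actb* −0.0232, *Bcl2l11* 0.63, *Cd79a* 0.0309, *Cycs* −0.11, *Eef2* 0.0611, *Fbl* −0.19, *Gimap3* 0.0793, *Mtor* −0.0172, *Nop56* 0.0507, *Polr1b* −0.00742 and *Rpl3* 0.0560, and with the block and without label number 8, *B2m* 0.12, *Bcl2l11* 0.96, *Ctla4* −0.0348, *Cycs* −0.13, *Fbl* −0.21, *Gimap5* −0.11, *Gpx1* 0.0257, *Hspe1* 0.0415, *Il2* 0.20, *Mtor* −0.22, *Mxd4* 0.0178, *Nop56* 0.31, *Polr1b* −0.29, *Prf1* −0.0418 and *Rpl3* 0.0909. Without label number 8 over 21 libraries they were *Gimap5* −0.00779, *Mtor* −0.11, *Polr1b* −0.20 and *Prf1* −0.21, with mtDNA NZB libraries alone *Fas* −0.000932, *Fbl* −0.0210, *Mtor* −0.0109, *Polr1b* −0.0333 and *Slc7a5* −0.0171, and with mtDNA NZB libraries alone and without label number 8 *Bcl2l11* 0.00264, *Gimap5* −0.000684, *Mtor* −0.0980, *Polr1b* −0.19 and *Prf1* −0.21. With the library set as a term they were *Bcl2l11* 0.16, *Mtor* −0.0108 and *Nop56* 0.0226, and with the set and without label number 8 *Bcl2l11* 0.0933, *Fbl* −0.000827, *Gimap5* −0.00162, *Mtor* −0.11, *Nop56* 0.0501, *Polr1b* −0.17 and *Prf1* −0.15. All 24 libraries gave *Fas* −0.0265, *Fbl* −0.0357, *Mtor* −0.0100, *Polr1b* −0.0174 and *Slc7a5* −0.0349, DESeq2 *Fas* −0.0237, *Fbl* −0.0368, *Mtor* −0.0288, *Polr1b* −0.0256 and *Slc7a5* −0.0376, RLE size factors *Fas* −0.0183, *Fbl* −0.0241, *Mtor* −0.0228, *Polr1b* −0.0413 and *Slc7a5* −0.0359, no filter *Mtor* −0.00321, *Polr1b* −0.0137 and *Slc7a5* −0.00397, the second count table *Fas* −0.00274, *Fbl* −0.0394, *Mtor* −0.11 and *mt-Nd1* 0.22, and a mean count of at least 30 *Ctla4* −0.0308, *Fbl* −0.0866, *Hspa8* −0.0127, *Mtor* −0.0939, *Polr1b* −0.11, *Slc2a1* −0.0312 and *Slc7a5* −0.0828, with a median of 0.41 for NK cell markers. With 1 library left out at a time the ranges that crossed 0 were *Bcl2l11* (−0.26 to 0.21), *Cd4* (−0.16 to 0.0168), *Cd79a* (−0.71 to 0.0967), *Ctla4* (−0.0236 to 0.18), *Eef2* (−0.0962 to 0.0928), *Fads2* (−0.0170 to 1.66), *Fas* (−0.18 to 0.22), *Fbl* (−0.12 to 0.13), *Gimap3* (−0.17 to 0.0960), *Hspa8* (−0.0495 to 0.37), *Hspe1* (−0.19 to 0.0392), *Irf4* (−0.17 to 0.15), *Mtor* (−0.0677 to 0.0688), *Nop56* (−0.29 to 0.12), *Polr1b* (−0.14 to 0.0954), *Prf1* (−0.0279 to 0.65), *Rpl3* (−0.16 to 0.0144), *Slc2a1* (−0.0396 to 0.39) and *Slc7a5* (−0.18 to 0.32).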
